A study of Homo sapiens with 8 samples.

Results

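S100 genes encode small calcium-binding proteins, and 10 of them (S100A2, S100A4, S100A6, S100A8, S100A9, S100A10, S100A11, S100A14, S100A16 and S100P) were followed through the loss of GRHL2, a transcription factor that activates epithelial genes. They were picked by gene symbol from the 57820 genes of the deposited table, and 8 of the 10 were among the 15019 genes with a mean of 1 FPKM or more in at least 1 group. FPKM is the number of sequenced fragments per kilobase of transcript, scaled to the fragment total of the run. The cells were OVCA429, a human ovarian carcinoma line, kept under puromycin and carrying a stable short hairpin RNA either against GRHL2 (shGRHL2, hairpin #12, the only hairpin against GRHL2 sequenced) or against luciferase (shLuc, the control). Each group has 4 samples by its labels, with total RNA as the starting material.

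Most S100 proteins work as dimers that change shape when calcium binds to their EF-hand loops and then dock onto target proteins such as annexins, myosin or ezrin. Several are also released from cells and act on surface receptors, among them AGER (also called RAGE) and TLR4. Apart from S100P and a few others, the human genes lie together on chromosome 1, in and beside a group of genes used in squamous epithelium, and many are used as markers of epithelium, myeloid cells or carcinoma.

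The 4 samples of a group are called rep1 to rep4 in the titles. Their descriptions, however, end in a running suffix of the kind that marks sequencing lanes. In abundant genes they differed little. Among genes at 100 FPKM or above, the coefficient of variation over runs had a median of 2.79% in shGRHL2 and 2.72% in shLuc. For MT-RNR2, the gene with most fragments, the SD of its share between runs was 0.0210 percentage points in shGRHL2, against 0.0134 from counting. In shLuc it was 0.0136, against 0.0115 from counting. A small spread alone does not show that the runs come from 1 library. On these grounds each group was counted as 1 library in 4 runs, which remains an assumption, and ± is the SD between runs. No difference below has a replicate check between cultures in these sequencing data. Some low genes varied more between runs than the abundant ones. MUC16 was at 0.15, 0.17, 0.32 and 1.05 FPKM in the shGRHL2 runs, on about 386 fragments in all. That spread, a coefficient of variation of 101%, was wider than counting error at this number of fragments, and its source was not tested. Low values moved in steps of single fragments, which put the depth at about 9900000 to 10150000 fragments per shGRHL2 run and 9260000 to 9550000 fragments per shLuc run. GRHL2 was at 0.13, 0.15, 1.17 and 0.10 FPKM in the shGRHL2 runs and averaged 33.9 ± 3.3 FPKM in shLuc, as the labels say. Its shGRHL2 mean was 0.388 FPKM with run 3 and 0.127 FPKM without it. Of 6 ovarian carcinoma epithelial markers all 6 were measured, and their summed level, mostly that of the keratins KRT7, KRT8 and KRT18, was 1653 to 1706 FPKM in the shGRHL2 runs and 4069 to 4139 FPKM in the shLuc runs. PAX8, a transcription factor of the Müllerian epithelium, went the other way, at 122 ± 2.9 FPKM in shGRHL2 and 69.8 ± 3.6 FPKM in shLuc. In bulk RNA, fewer cells of a type and less RNA per cell cannot be told apart.

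S100A14, S100A9, S100A4 and S100A11, 4 of the 10 genes, were at least 2-fold lower in shGRHL2. S100A10, S100A16, S100A2 and S100A6 stayed within 2-fold, and S100A8 and S100P were at or near 0 in both libraries. The limit was an absolute difference of 1 between the group means of log2(FPKM + 1), a scale that understates the change of low genes. Of all 15019 genes compared, 7.24% were lower by this limit, 4.97% higher and 87.8% within it. S100A14 and S100A9 passed the expression filter through shLuc alone, so the direction of their difference followed from the filter, though its size did not.

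**Figure D1:**
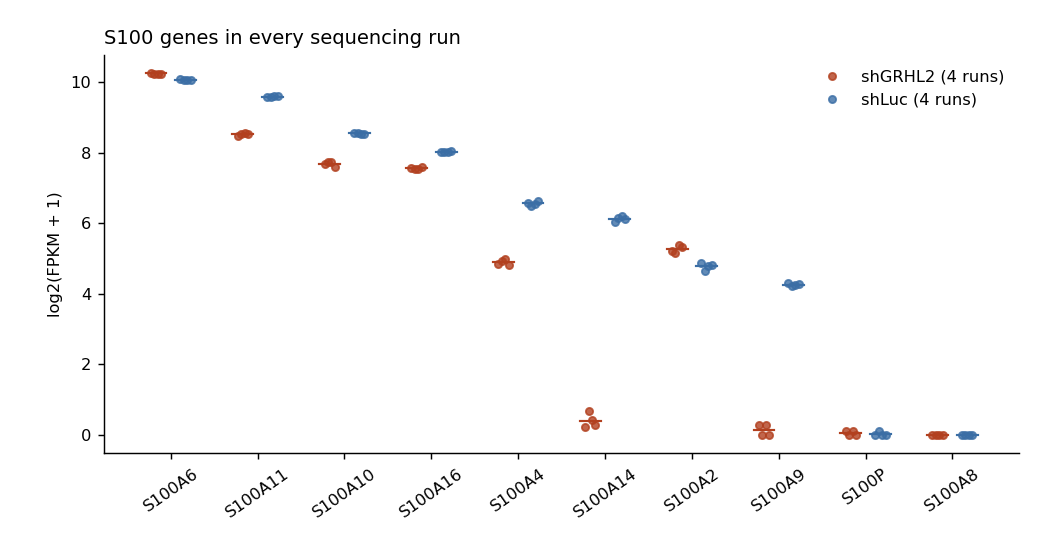
Level of the 10 S100 genes, as log2(FPKM + 1), in each of the 4 shGRHL2 runs (left of each pair) and the 4 shLuc runs (right), ordered by the shLuc mean. Points are runs and bars are means. S100A14 and S100A9 drop close to 0 in shGRHL2, whereas S100A6 lies at 1210 to 1232 FPKM in shGRHL2 and 1068 to 1085 FPKM in shLuc.

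S100A14 showed the largest difference of the set. The protein is known from epithelia and carcinomas, and a known binding partner in human cells is S100A16. The gene (ENSG00000189334.4, chromosome 1, 153586731 to 153589462, minus strand, GRCh37) was at 0.18, 0.59, 0.34 and 0.23 FPKM in the shGRHL2 runs, against 65.2, 70.1, 73.2 and 68.9 FPKM in the shLuc runs. Every shGRHL2 run lay far below every shLuc run. The shGRHL2 level was 0.483% of the shLuc level (95% counting interval 0.257% to 0.871%), or 207-fold lower in mean FPKM. It rested on about 11.6 fragments in the shGRHL2 library and 2259 in the shLuc library. The difference of −5.73 was the 7th lowest of all genes compared.

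S100A9 was the other gene that came close to vanishing. With S100A8 it forms calprotectin, a metal-binding antimicrobial complex best known from neutrophils and inflamed epithelium. S100A9 (ENSG00000163220.10, chromosome 1, 153330330 to 153333499, plus strand) was at 0.23, 0, 0.23 and 0 FPKM in the shGRHL2 runs and at 18.6, 17.8, 18.1 and 18.4 FPKM in the shLuc runs. The runs did not overlap. These values correspond to about 1.99 fragments in the shGRHL2 library and 292 in the shLuc library. The shGRHL2 level was 0.631% of the shLuc level, with a 95% counting interval of 0.0773% to 2.34%, and the difference of −4.11 ranked 26th from the lowest. Differences of −4 or beyond were found in 0.2% of all genes compared.

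S100A8, the usual partner of S100A9, was listed at 0 in all 8 runs. A count of 0 allows up to 3 fragments per library, which is 0.175 FPKM in shGRHL2 and 0.187 FPKM in shLuc. S100A9 message in shLuc was therefore not matched by a detectable S100A8 message at this depth. Because both genes mark myeloid cells and squamous keratinocytes, markers of these cells were read beside them. Of 11 leukocyte markers 2 passed the filter (LAPTM5 and ITGB2), and the summed level was 8.34 to 9.98 FPKM in shGRHL2 runs and 3.31 to 4.85 FPKM in shLuc runs. LAPTM5 had the highest mean of the list in both groups, at 6.39 ± 0.32 FPKM in shGRHL2 and 1.76 ± 0.39 FPKM in shLuc. ITGB2 came next, at 1.95 ± 0.65 FPKM in shGRHL2 and 1.09 ± 0.56 FPKM in shLuc. By mean log2(FPKM + 1), 5 of the 11 were higher in shGRHL2, 3 were lower and 3 were at 0 in all runs. The 9 that did not pass averaged under 1 FPKM in both groups, several on a few fragments, so their directions carry little weight. The granulocyte genes MPO and FCGR3B and the T cell gene CD3E were at 0 in all runs. CSF3R, another granulocyte gene, averaged 0.230 ± 0.11 FPKM in shGRHL2 and 0.0325 ± 0.065 FPKM in shLuc. That is about 11.9 fragments in the shGRHL2 library and 1.59 in the shLuc library, with overlapping runs. Of 7 squamous keratinocyte markers 1 passed (KRT10), with sums of 1.08 to 2.42 FPKM in shGRHL2 and 3.12 to 4.88 FPKM in shLuc. KRT5 and IVL were at 0 in all shGRHL2 runs and averaged 0.770 and 0.760 FPKM in shLuc, and KRT1 and LOR were at 0 in all runs. The part of these cell types in the S100 differences was not tested.

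S100A4, also called metastasin or FSP1, binds non-muscle myosin IIA and is widely used as a marker of fibroblasts and of epithelial–mesenchymal transition. It was lower, not higher, in the shGRHL2 library. The gene (ENSG00000196154.7, chromosome 1, 153516089 to 153522612, minus strand) was at 28.0, 29.8, 30.9 and 27.0 FPKM in shGRHL2 runs, against 94.7, 89.0, 91.9 and 98.9 FPKM in shLuc runs. The highest shGRHL2 run lay below the lowest shLuc run. The means were 28.9 ± 1.7 FPKM in shGRHL2 and 93.6 ± 4.2 FPKM in shLuc, a difference of −1.66 and a level of 30.9% of shLuc (counting interval 28.0% to 34.1%). For comparison, vimentin (VIM), an intermediate filament of mesenchymal cells, averaged 1383 ± 10.5 FPKM in shGRHL2 and 158 ± 1.7 FPKM in shLuc. Of 7 fibroblast markers 1, COL1A1, passed the filter, and the summed level of the list was 3.57 to 5.19 FPKM in shGRHL2 runs and 1.09 to 2.81 FPKM in shLuc runs. Most of this sum was COL1A1, at 3.6 ± 1.0 FPKM in shGRHL2 and 1.2 ± 0.70 FPKM in shLuc. By mean log2(FPKM + 1), 5 of the 7 were higher in shGRHL2, 1 was lower and 1 was at 0 in all runs. The 6 that did not pass averaged under 1 FPKM in both groups, so their directions carry little weight. COL1A2, counted as higher, rested on about 0.289 fragments in shGRHL2, and COL3A1, counted as lower, on about 0.385 in shLuc. The part of fibroblast markers in the S100 differences was not tested.

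Promoter windows are shown for the 3 genes that fell most and for S100A3, which lies within the annotated span of S100A4 and was higher. The windows run from 250 bases before to 50 bases after the RefSeq start and are given on the gene's own strand in build GRCh38.p14, which is not the build of the expression table. Capitals mark matches, on either strand, to AACCNGTT (the core that grainyhead factors such as GRHL2 recognise), CACCTG (an E-box form recognised by ZEB1 and SNAI proteins) or TGANTCA (the AP-1 type element).
S100A14, chr1:153616276-153616575, minus strand: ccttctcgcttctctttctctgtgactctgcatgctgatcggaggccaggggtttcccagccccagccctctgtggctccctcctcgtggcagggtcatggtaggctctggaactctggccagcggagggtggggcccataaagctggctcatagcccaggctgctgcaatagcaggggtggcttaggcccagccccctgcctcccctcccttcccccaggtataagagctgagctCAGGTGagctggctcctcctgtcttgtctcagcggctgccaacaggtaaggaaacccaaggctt
S100A9, chr1:153357604-153357903, plus strand: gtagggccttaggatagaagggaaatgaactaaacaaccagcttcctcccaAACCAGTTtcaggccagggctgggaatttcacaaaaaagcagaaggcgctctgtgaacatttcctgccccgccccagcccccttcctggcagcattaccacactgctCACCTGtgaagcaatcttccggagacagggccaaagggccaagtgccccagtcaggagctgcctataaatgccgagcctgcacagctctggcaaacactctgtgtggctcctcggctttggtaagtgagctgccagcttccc
S100A4, chr1:153545757-153546056, minus strand: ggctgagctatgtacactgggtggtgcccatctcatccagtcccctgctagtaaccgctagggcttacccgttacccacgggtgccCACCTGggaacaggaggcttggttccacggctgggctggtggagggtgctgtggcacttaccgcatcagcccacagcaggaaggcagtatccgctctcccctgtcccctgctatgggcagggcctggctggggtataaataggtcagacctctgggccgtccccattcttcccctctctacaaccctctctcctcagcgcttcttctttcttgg
S100A3, chr1:153549209-153549508, minus strand: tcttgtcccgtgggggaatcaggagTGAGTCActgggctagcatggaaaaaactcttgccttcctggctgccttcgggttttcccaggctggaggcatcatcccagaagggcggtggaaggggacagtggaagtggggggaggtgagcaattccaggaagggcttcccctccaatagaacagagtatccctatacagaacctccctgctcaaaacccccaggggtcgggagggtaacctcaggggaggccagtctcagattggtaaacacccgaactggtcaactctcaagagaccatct

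S100A9 was the only one of the 10 genes with AACCNGTT in a window, at bases 52 to 59 (AACCAGTT). Of all 27305 genes with a window, 2.14% hold a match in at least 1 of theirs, and of all 35116 windows 1.73%. CACCTG occurred in windows of 7 of the 10 genes, those of S100A14, S100A9 and S100A4 but also those of S100A2, S100A8, S100A16 and S100P, against 24.1% of all genes. By windows it was 10 of 14, against 20.6% of all windows, and the 3 windows of S100A8 overlap and hold the same match. TGANTCA occurred in 1 of the 10, S100A2, and in the S100A3 window, against 9.37% of all genes and 7.71% of all windows. Matches to different motifs did not overlap. All 10 genes had at least 1 window, 14 in all. A match, or the lack of one, describes the letters of these windows only and was not tested for binding, there or elsewhere in the gene.

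S100A11 and S100A10 lie side by side at the far end of the cluster and encode partners of annexins. S100A11, which binds annexin A1, was at 358, 372, 377 and 370 FPKM in shGRHL2 runs, against 762, 767, 778 and 777 FPKM in shLuc runs. The runs stood well apart, with means of 369 ± 8.2 FPKM in shGRHL2 and 771 ± 7.7 FPKM in shLuc and a difference of −1.06. That is just past the limit, and with equal medians across the runs the difference was −0.95 and within it. S100A10, or p11, has lost calcium binding and forms a stable tetramer with annexin A2. It was at 206, 211, 211 and 194 FPKM in shGRHL2 runs, against 379, 379, 366 and 368 FPKM in shLuc runs. These runs did not overlap either, but the difference of −0.86 was just inside the limit, and it was −0.96 with TPM, in which the values of every run are rescaled to the same sum. S100A10 and S100A11 are thus the members nearest the limit on either side of it.

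Their annexin partners gave values of similar direction. ANXA2 averaged 1382 ± 24.9 FPKM in shGRHL2 and 2346 ± 19.6 FPKM in shLuc, a difference of −0.76, and ANXA1 averaged 288 ± 2.3 FPKM in shGRHL2 and 438 ± 8.8 FPKM in shLuc, a difference of −0.60. The ratio of S100A10 to ANXA2 per length of transcript was 0.149 ± 0.0080 in shGRHL2 and 0.159 ± 0.0017 in shLuc. The ranges of this ratio over runs, 0.138 to 0.156 in shGRHL2 and 0.157 to 0.160 in shLuc, lay next to each other without overlap. The ratio of S100A11 to ANXA1 moved further, from 1.76 ± 0.043 in shLuc to 1.28 ± 0.023 in shGRHL2. Its ranges were 1.26 to 1.31 in shGRHL2 runs and 1.70 to 1.81 in shLuc runs.

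S100A6, S100A16 and S100A2 changed least. S100A6, or calcyclin, which binds the ubiquitin ligase adaptor CACYBP, was the most abundant member at 1216 ± 10.3 FPKM in shGRHL2 and 1074 ± 8.0 FPKM in shLuc, ranked 46th in shGRHL2 and 71st in shLuc among all genes. Its runs did not overlap, and its difference was 0.18. The difference ranged from 0.07 with TPM to 0.33 when the mitochondrial ribosomal RNAs were left out of the fragment total. S100A16, the partner of S100A14, was at 189, 185, 186 and 191 FPKM in shGRHL2 runs and at 260, 260, 261 and 264 FPKM in shLuc runs. Every shGRHL2 run lay below every shLuc run, with a difference of −0.47 and a level of 71.9% of shLuc. S100A2, a nuclear S100 protein of basal epithelium, was at 36.3, 35.1, 40.9 and 39.5 FPKM in shGRHL2 runs, against 28.1, 24.0, 26.5 and 27.4 FPKM in shLuc runs. S100A2 was thus higher in every shGRHL2 run, with a difference of 0.50 and a level of 143% of shLuc (counting interval 127% to 162%).

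S100P, known from placenta and many carcinomas and a binding partner of ezrin, was hardly detected. It was at 0.09, 0, 0.09 and 0 FPKM in shGRHL2 runs and at 0, 0.09, 0 and 0 FPKM in shLuc runs, about 1.18 fragments in the shGRHL2 library and 0.538 in the shLuc library. No difference was detectable at this depth. Together with S100A8 it makes up the 2 members that did not pass the filter.

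Of the 8 members compared, 6 had all shGRHL2 runs below all shLuc runs and 2 had them above (S100A6 and S100A2). Among all genes compared, 33.2% had all runs below and 18.5% above, so separation between these 2 libraries is frequent. limma over runs, a moderated linear model with Benjamini-Hochberg adjustment, called the same members, 6 lower and 2 higher, beside 35.5% and 20.6% of all genes. These calls concern the pair of sequenced libraries, not the conditions.

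**Figure D2:**
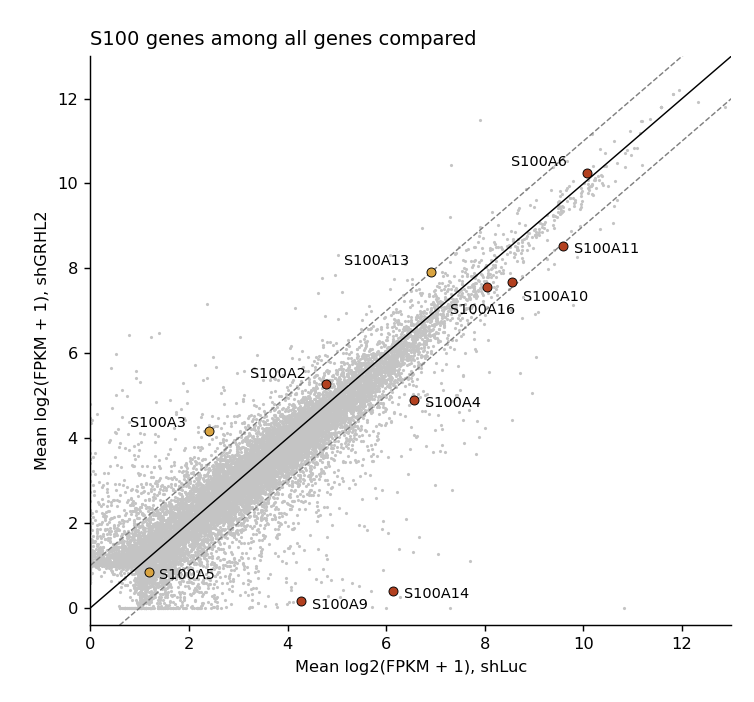
Mean log2(FPKM + 1) in shGRHL2 (vertical axis) against shLuc (horizontal axis) for all 15019 genes compared (grey), with the 8 compared members of the set in red and 3 other S100 genes in yellow. The solid line marks equality and dashed lines the 2-fold limit. S100A14 and S100A9 lie at the bottom edge, S100A4 below the lower dashed line, and S100A3 above the upper one.

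Whether neighbouring S100 genes differed in the same direction was read along the map. The S100 genes of chromosome 1 span 1649 kb of GRCh37 (151955391 to 153604515), and 11 of 17 passed the filter. Of their 10 adjacent pairs in map order, 5 had differences of opposite sign. S100A6 and S100A5 in 1 of these pairs were both within 2-fold, and S100A5 had overlapping runs. S100A9, S100A14 and S100A5 passed the filter through shLuc alone, so their negative signs in these pairs followed from the filter. Over all genes compared, 42.7% of 14564 adjacent pairs had opposite signs, so the share in the cluster was near that of the genome. The count was also 5 of 10 under each other scaling, with a pseudocount of 0.1 and with any single run left out. It was 5 of 11 without a filter, which adds S100A1, and 5 of 9 with a filter at 5 FPKM, which drops S100A5. Between neighbours of opposite sign, S100A14 and S100A13 were farthest apart. S100A16 lies 1109 bases before it on the map and differed by −0.47, and S100A13 lies 1800 bases after it and differed by 1.00.

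**Figure D3:**
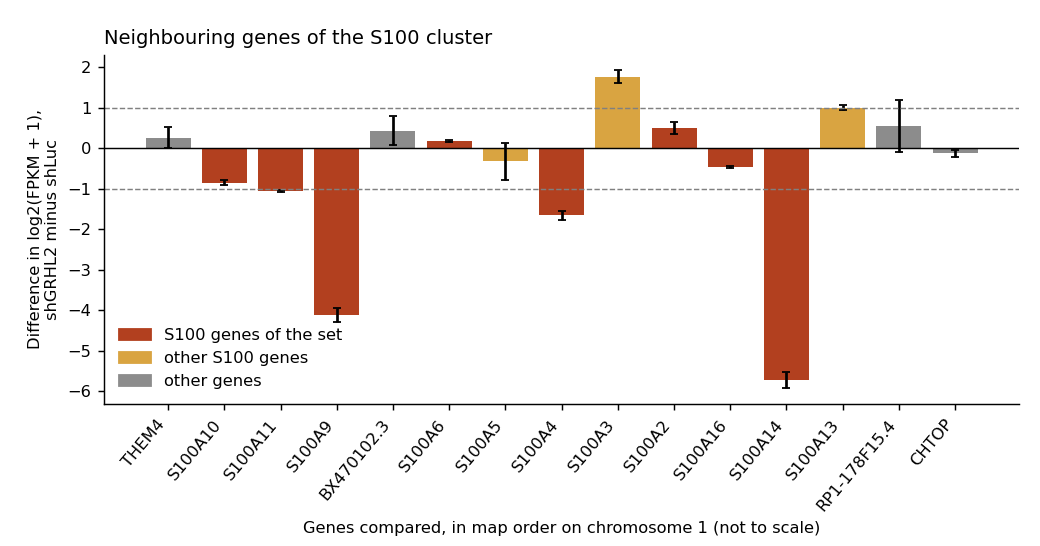
Difference in mean log2(FPKM + 1), shGRHL2 minus shLuc, for each gene compared in map order along the chromosome 1 cluster, with the nearest compared gene on either side (THEM4 and CHTOP). Error bars are the SD between runs of the difference and dashed lines the 2-fold limit. S100A9, S100A4 and S100A14 reach well below −1 and S100A11 just below it, while S100A3 next to S100A4 is above 1 and S100A13 next to S100A14 is at 1.00.

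S100A13, which takes part in the release of FGF1 and IL1A from cells, was at 252, 233, 242 and 235 FPKM in shGRHL2 runs, against 125, 115, 119 and 118 FPKM in shLuc runs. Its runs did not overlap, and its mean was 2.02-fold higher in shGRHL2. The difference of 1.00 sat on the limit and was 0.90 with TPM, 0.96 with TPM without the mitochondrial ribosomal RNAs and 1.11 with equal medians. The ratio of S100A14 to S100A13 was 0.00141 ± 0.00080 in shGRHL2 and 0.582 ± 0.042 in shLuc. S100A13 shares 24.2% of its exon bases with the RNA RP1-178F15.5 on the same strand and 10.6% with S100A1 on the opposite strand, so its value depends in part on how shared fragments were divided. RP1-178F15.5 and S100A1 did not pass the filter.

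S100A3, a protein of the hair cuticle, was at 15.3, 18.7, 16.2 and 18.2 FPKM in shGRHL2 runs, against 4.36, 3.93, 4.57 and 4.35 FPKM in shLuc runs. It was higher in every shGRHL2 run, by 3.98-fold (counting interval 324% to 495% of shLuc) and 1.77 on the log2 scale. The ratio of S100A4 to S100A3 was 1.70 ± 0.20 in shGRHL2 and 21.8 ± 1.2 in shLuc. Although the span of S100A4 crosses that of S100A3, their annotated transcripts (6 and 2) share no exon base.

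Of the 11 other S100 family genes, S100A3, S100A13 and S100A5 passed the filter, 2 of them higher and 0 lower. Among all genes compared, 4.97% were higher and 7.24% lower. S100A5 was at 0.850 ± 0.46 FPKM in shGRHL2 and 1.29 ± 0.42 FPKM in shLuc, and so passed through shLuc alone. Its runs overlapped, with about 12.2 fragments in shGRHL2 and 17.2 in shLuc. S100A1, S100A7, S100A7A, S100A7L2, S100A12, S100B, S100G and S100Z did not pass, 5 of them at 0 in all runs. None of the 7 fused-type S100 genes, large proteins of the epidermal barrier such as filaggrin (FLG) and trichohyalin (TCHH), passed. All 45 protein-coding genes between S100A11 and S100A9, most of them used in epidermal differentiation, had group means under 1 FPKM, and 39 were at 0 in all runs. The highest group mean among them was 0.76 FPKM. The genes flanking the cluster were within 2-fold, THEM4 at 0.26 and CHTOP at −0.13, and so were the RNAs BX470102.3 at 0.43 and RP1-178F15.4 at 0.55 within it.

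The summed level of all 21 S100 genes was 2305 ± 14.7 FPKM in shGRHL2 and 2812 ± 9.0 FPKM in shLuc. Its make-up shifted toward S100A6, which held 52.8% ± 0.39 of the sum in shGRHL2 and 38.2% ± 0.24 in shLuc. S100A6 itself was only 1.13-fold higher in shGRHL2, and its share also rose as the level of other members fell. S100A13 held 10.4% in shGRHL2 and 4.24% in shLuc, and S100A11 held 16.02% in shGRHL2 and 27.4% in shLuc. S100A14, S100A9 and S100A4 held 0.0145%, 0.00496% and 1.26% of the sum in shGRHL2, against 2.47%, 0.648% and 3.33% in shLuc.

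**Figure D4:**
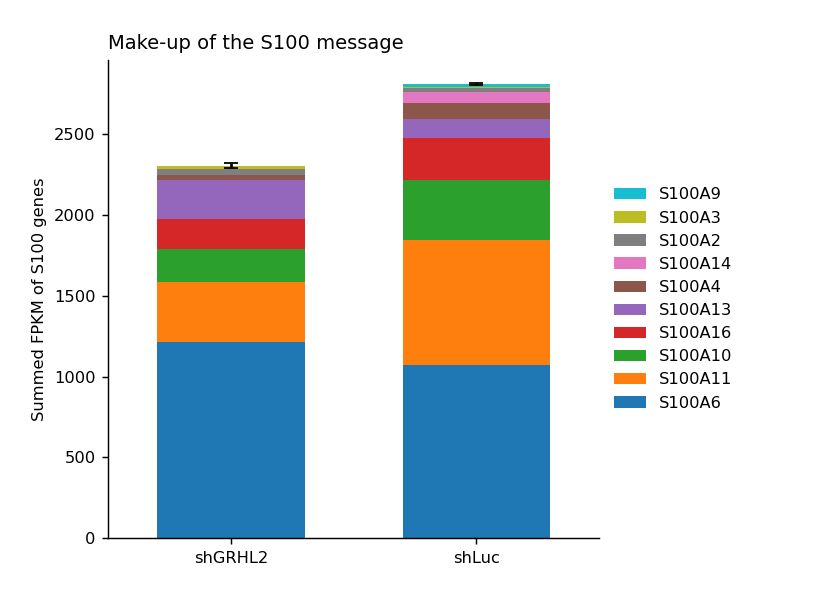
Summed FPKM of the S100 genes in shGRHL2 (left) and shLuc (right), divided by gene. Genes under 0.1% of the sum in both libraries are not drawn, and error bars are the SD of the sum between runs. S100A6 holds the larger share in shGRHL2 (52.8%, against 38.2% in shLuc) and S100A11 the smaller (16.02%, against 27.4% in shLuc).

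Intracellular partners of S100 proteins mostly stayed within 2-fold, as did 87.8% of all genes compared. Of 13 listed and compared, 1 was higher, 0 were lower and 12 were within the limit, beside 4.97% higher and 7.24% lower of all genes. Their median was −0.26, beside −0.10 for all genes. The exception was ANXA6, an annexin bound by S100A6, at 134, 134, 131 and 129 FPKM in shGRHL2 runs, against 17.5, 17.3, 16.2 and 16.5 FPKM in shLuc runs. ANXA6 was 7.84-fold higher, and its difference of 2.90 was opposite in sign to those of ANXA1, ANXA2 and ANXA11 (−0.49). CACYBP (83.8 ± 1.4 FPKM in shGRHL2 and 109 ± 4.6 FPKM in shLuc), the S100A4 target myosin heavy chain MYH9 (97.2 ± 6.1 FPKM in shGRHL2 and 109 ± 3.2 FPKM in shLuc) and the S100P partner ezrin, EZR (80.4 ± 2.2 FPKM in shGRHL2 and 130 ± 1.6 FPKM in shLuc) were within the limit. AHNAK, IQGAP1, PPFIBP1, S100PBP and SUGT1 differed by −0.32 to 0.10.

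Of 7 surface receptors 6 passed, 1 of them higher and 0 lower, with a median of 0.10. The shares over all genes compared were 4.97% higher and 7.24% lower. TLR4, the receptor of S100A8 and S100A9, was at 5.54, 4.48, 4.61 and 4.41 FPKM in shGRHL2 runs, against 0.50, 0.71, 0.52 and 0.31 FPKM in shLuc runs. It was 9.33-fold higher and passed the filter through shGRHL2 alone, in the library where its ligand gene S100A9 was nearly absent. AGER averaged 1.35 ± 0.62 FPKM in shGRHL2 and 0.853 ± 0.49 FPKM in shLuc, with overlapping runs. ALCAM averaged 223 ± 3.3 FPKM in shGRHL2 and 433 ± 6.3 FPKM in shLuc, a difference of −0.95 that was −1.06 with TPM. BSG, MCAM and NPTN differed by 0.58, −0.49 and −0.14, and CD36 did not pass.

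The 3 protein-coding genes closest to S100A14 in the plane of the 2 group means, among 12025, were TMPRSS4, VGLL1 and CDH1, at distances of 0.21, 0.43 and 0.45 log2 units. The membrane protease gene TMPRSS4 averaged 0.203 ± 0.19 FPKM in shGRHL2 and 76.4 ± 3.3 FPKM in shLuc. E-cadherin, CDH1, averaged 0.313 ± 0.092 FPKM in shGRHL2 and 50.5 ± 1.4 FPKM in shLuc, and VGLL1 was listed at 0 in shGRHL2 and averaged 62.9 ± 2.2 FPKM in shLuc. They lie on chromosomes 11, X and 16, and the measure covers 2 libraries.

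How FPKM is scaled matters for the members near the limit. MT-RNR2, a mitochondrial ribosomal RNA, accounted for 23.7% of shGRHL2 fragments and 14.7% of shLuc fragments, and the median difference of all genes was −0.10. Setting equal medians raised all differences by 0.11, and a fragment total without MT-RNR1 and MT-RNR2 raised the median by 0.13. Under these settings S100A11 was within 2-fold, and 3 of the 10 genes remained lower (S100A14, S100A9 and S100A4). No member changed sign under any setting tried.

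**Figure D5:**
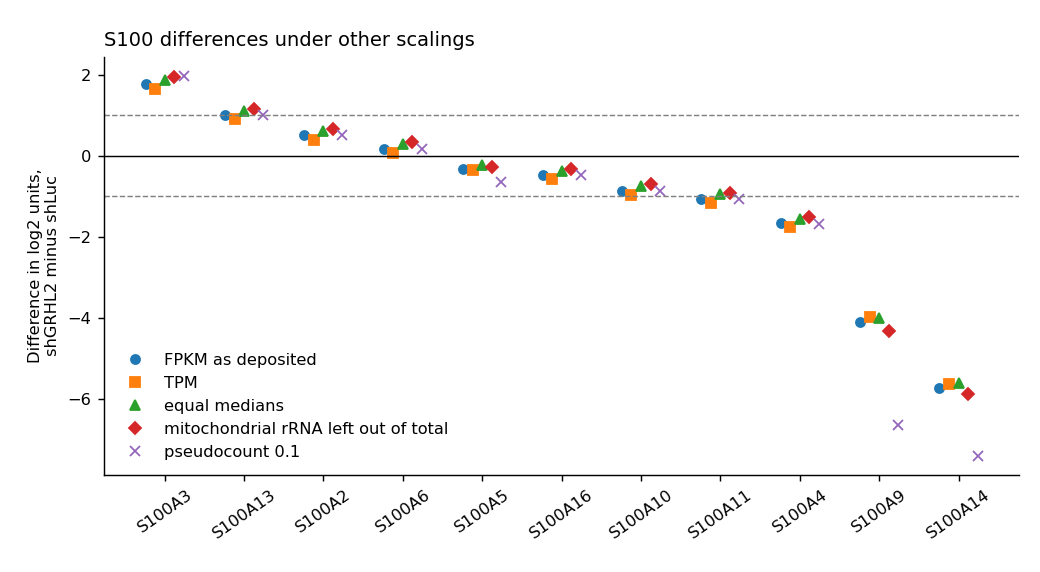
Difference between shGRHL2 and shLuc of the 11 compared S100 genes, in log2 units, under the deposited scaling, TPM, equal medians, mitochondrial ribosomal RNAs left out of the total, and a pseudocount of 0.1. Dashed lines are the 2-fold limit. S100A11 and S100A13 cross the limit between scalings, and the pseudocount moves S100A9 to −6.66 and S100A14 to −7.41.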

How the data were processed

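RNA of OVCA429 shGRHL2 and shLuc cells (8 samples) was prepared with a stranded total RNA kit and sequenced paired-end. According to the labels' processing notes, the authors demultiplexed with bcl2fastq 2.17.1.14, aligned to hg19 with STAR 2.4.2a and quantified with RSEM 1.2.25 on Gencode v19. The deposited values are FPKM per gene, with other columns holding gene lengths in bases. RSEM divides shared fragments between transcripts, and its strand setting is not given in the sources used here.

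From the FPKM, group means of log2(FPKM + 1) were compared over genes with a mean of 1 FPKM or more in a group. The descriptions end in a lane-like suffix, and the median coefficient of variation was under 3% in both groups. Each group was therefore counted as 1 library, and no p-value is given for the conditions. limma 3.58.1 (R 4.3.3, trend, adjusted p under 0.05) was run over runs after testing on simulated data. Depth came from the value of 1 fragment, for which 87.4% to 89.6% of low values were whole within 0.1 fragment. Counting intervals are exact (Clopper-Pearson, 95%) and, like the limit of 3 fragments, cover counting error only. Positions come from Gencode v44 lifted to GRCh37 (55538 identifiers matched) and promoter windows from RefSeq.

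The members and lists were chosen with earlier results of these data known. Named genes were all members, listed relatives that passed the filter, compared genes next to the members, the 3 genes most like S100A14, and GRHL2, CDH1 and VIM. The values of 1 listed partner are not reported here. Alternatives were pseudocount 0.1, no filter, a filter at 5 FPKM, TPM, equal medians, TPM without mitochondrial ribosomal RNAs, each run left out, a replicate block and, chosen after seeing the data, a fragment total without those RNAs.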

Additional observations from a re-analysis of the deposited data

Results flagged for a closer look

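Of 99 sets of 4 runs examined for the named and listed genes that passed the filter, 4 had a run far from the other 3, and chance flags about 1 in 20 sets. S100A6 was at 1232 FPKM in shGRHL2 run 1, against 1210 to 1213 FPKM in the other shGRHL2 runs, a gap of 0.876 of the range, above Dixon's critical value for 4 samples. IQGAP1, a scaffold protein that binds S100P, was at 102 FPKM in shLuc run 3, against 93.5 to 94.6 FPKM in the other shLuc runs, a gap of 0.869 of the range. COL1A1, a fibroblast marker, was at 2.24 FPKM in shLuc run 3, against 0.79 to 0.94 FPKM in the other shLuc runs, a gap of 0.897 of the range. GRHL2 was at 1.17 FPKM in shGRHL2 run 3, against 0.10 to 0.15 FPKM in the other shGRHL2 runs, a gap of 0.953 of the range.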

How the results depend on the processing

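Every member that passed the filter kept its sign under each alternative, and the 4 members lower by 2-fold or more became 3 with equal medians and with the mitochondrial ribosomal RNAs left out of the fragment total, as S100A11 came within the limit. Over all genes, 746 were higher and 1087 lower, which became 1324 and 1663 with a pseudocount of 0.1, and 464 higher with a filter at 5 FPKM. The share of higher genes among those past the limit was 40.7%, and 50.9% with equal medians, 34.1% with TPM and 51.4% with the fragment total without mitochondrial ribosomal RNAs. The 2 higher genes among the other S100 family genes became 1 with TPM and 1 with TPM without mitochondrial ribosomal RNAs, and 1 to 2 when single runs were left out, since S100A13 sat on the limit. It fell inside it without shGRHL2 replicate 1 and without shLuc replicate 2. Among surface receptors, 0 were higher with a filter at 5 FPKM, which drops TLR4, and 1 was lower with TPM (ALCAM). The 1 higher fibroblast marker, COL1A1, became 0 with a filter at 5 FPKM and 0 with TPM. With a replicate block, limma called 2944 genes higher and 5165 lower, against 3094 and 5335 without it, and 2 members higher and 6 lower in both fits. Runs of the same number did not deviate together (correlations of −0.22 to 0.03 over 6937 genes). S100A8, S100A9 in shGRHL2, and S100P rest on 0 to 2 fragments per library, which is the limit on what can be said of them.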
